A study of Mus musculus with 72 samples.

Results

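Expression of 10 genes of resident macrophages and antigen presentation was followed through the first postnatal weeks in the mouse olfactory epithelium, the tissue that detects odours. They are Cd74 and the MHC class II chains H2-Aa, H2-Ab1 and H2-Eb1, the complement C1q chains C1qa, C1qb and C1qc, and the macrophage genes Csf1r, Lyz2 and Cd68. They were listed by symbol, found in the deposited expression table and matched to the deposited counts by Ensembl ID. All 10 were present among 54532 genes, and all 10 passed the filter on low counts that left 22144 genes for testing. The series held 72 libraries of ribosome-depleted total RNA in 25 groups, 22 of 3 libraries and 3 of 2. Ectopic Fzd1 mice carried Omp-IRES-tTA;tetO-Fzd1-IRES-tdTomato, in which the activator tTA, made in mature sensory neurons from the Omp locus, drives the Wnt receptor Fzd1 together with tdTomato. Fzd1-lacZ mice are the knockout of the series, and their genotype label names no Omp-IRES-tTA. Control mice carried Omp-IRES-tTA, which the ectopic mice carry too, and no group without a modified allele was analysed here. With doxycycline (DOX), which keeps tTA from driving the transgene, there were 15 ectopic and 15 control libraries at postnatal days (P) 1, 3, 7, 10 and 14. DOX was given from P0 up to the day of sampling, so age and length of dosing cannot be told apart there. Without DOX there were 14 ectopic, 15 Fzd1-lacZ and 13 control libraries, at P0, P3, P7, P10 and P14. The labels do not say that libraries of a group came from separate animals, so the spread behind each p-value is that between these libraries and may be technical.

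Macrophages clear dying cells and debris and depend on the receptor Csf1r for survival. Many tissue macrophages make C1q, the recognition protein of the classical complement pathway, which is built from the A, B and C chains. MHC class II molecules pair an alpha with a beta chain and present peptides to CD4 T cells, and the invariant chain Cd74 escorts the pair and covers its groove until peptide is loaded. Class II genes are switched on through the coactivator Ciita at X and Y box elements of their promoters. Dendritic cells and B cells use class II as well as macrophages. In whole tissue, fewer cells of a type and less RNA per cell cannot be told apart.

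Both families lie in clusters. On mouse build mm10, H2-Ab1 (chr17:34257689-34269419), H2-Aa (chr17:34282744-34287823) and H2-Eb1 (chr17:34305867-34316674) lie within 59.0 kb. C1qb (chr4:136880129-136886187), C1qc (chr4:136889804-136893065) and C1qa (chr4:136895917-136898803) lie within 18.7 kb, all on the minus strand. Lyz2 is at chr10:117277331-117282321 and Cd68 at chr11:69664213-69666153. H2-Eb1 overlaps the antisense gene Gm20513 by 2204 bases and Csf1r overlaps Hmgxb3 on the other strand by 873 bases. Whether counting used strand is not given in the sources used here, so reads from those stretches are uncertain. Lyz2 has a close paralogue, Lyz1, that could share its reads. Without DOX, Lyz1 had a median of 4.24 TPM at P0 and 0.135 TPM at P14, and Lyz2 94.1 and 21.1 TPM. The part of Lyz1 in the Lyz2 values was not tested.

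Promoters of a pair of class II genes and a pair of C1q genes are shown because these families diverged with age. In all, 6 of the 10 genes matched a RefSeq promoter table of build GRCm38.p6. Each window runs from 250 bases before the gene's start to 50 after it, 5′ to 3′ on the gene's own strand. The windows are chr17:34287774-34288073 (minus strand) for H2-Aa, chr17:34305617-34305916 (plus strand) for H2-Eb1, chr4:136886151-136886450 (minus strand) for C1qb and chr4:136892865-136893164 (minus strand) for C1qc. Capitals mark the X box letters CTNGCAAC and the Y box letters CCAAT in the class II genes. In the C1q genes they mark GAGGAA, letters bound by the myeloid factor PU.1. Both strands were searched, so a Y box may read ATTGG and a PU.1 match TTCCTC.
H2-Aa: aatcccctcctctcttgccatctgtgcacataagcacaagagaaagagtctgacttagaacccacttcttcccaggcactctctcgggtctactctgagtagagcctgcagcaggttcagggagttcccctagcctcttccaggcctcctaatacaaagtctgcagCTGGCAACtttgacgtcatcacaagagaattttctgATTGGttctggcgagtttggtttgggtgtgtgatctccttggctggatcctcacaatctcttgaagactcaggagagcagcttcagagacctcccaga
H2-Eb1: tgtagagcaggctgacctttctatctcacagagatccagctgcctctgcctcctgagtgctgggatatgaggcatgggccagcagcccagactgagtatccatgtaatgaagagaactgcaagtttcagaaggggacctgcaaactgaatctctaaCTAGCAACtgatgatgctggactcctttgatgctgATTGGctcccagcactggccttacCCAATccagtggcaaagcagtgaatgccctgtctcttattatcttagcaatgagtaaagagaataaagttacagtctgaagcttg
C1qb: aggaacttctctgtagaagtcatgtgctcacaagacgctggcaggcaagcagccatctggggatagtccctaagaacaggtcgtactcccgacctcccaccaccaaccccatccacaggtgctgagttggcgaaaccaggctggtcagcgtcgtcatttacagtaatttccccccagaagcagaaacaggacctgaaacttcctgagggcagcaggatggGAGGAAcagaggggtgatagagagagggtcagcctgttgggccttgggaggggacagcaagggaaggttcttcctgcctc
C1qc: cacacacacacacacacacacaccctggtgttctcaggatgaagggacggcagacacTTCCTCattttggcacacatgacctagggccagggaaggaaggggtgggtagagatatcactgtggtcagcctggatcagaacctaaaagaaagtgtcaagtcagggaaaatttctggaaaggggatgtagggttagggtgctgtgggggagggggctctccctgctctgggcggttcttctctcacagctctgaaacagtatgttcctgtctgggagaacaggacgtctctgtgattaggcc

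In H2-Aa the X box began 84 bases before the start and the Y box 48 bases before it. In H2-Eb1 the X box began 94 bases before the start, with Y boxes at 59 and 35 bases. From the X box to the next Y box there were 36 bases in H2-Aa and 35 bases in H2-Eb1, start to start. The X box letters, which were chosen after these promoters had been read, occurred in 3.45% of 32544 promoters of the same length, and CCAAT occurred in 37.4%. An X box followed by a Y box within 50 bases occurred in 26 promoters (0.0799%) of 24 genes, of which 3 were class II genes, H2-Aa, H2-Eb1 and H2-Ob. The PU.1 letters, present in 28.1% of promoters, began 30 bases before the start of C1qb and 193 bases before that of C1qc. The Cd68 window held 3 Y boxes and 2 PU.1 matches. These are matches of letters, not measured binding.

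Depth limited what could be resolved. Counts in genes were 1.31 M reads in the shallowest library, 8.79 M in the deepest and 4.28 M at the median, and the 10 genes together received 74 to 2584 counts (median 831.5). A family of 12 predicted genes, of which Gm10800 is one, took 0.0540% to 73.7% of the gene counts (median 7.53%) and stood above 25% in 8 libraries, among them Fzd1-lacZ P10 replicates 1 and 3. Its level went with age. Without DOX the family summed to 520, 4029 and 123759 CPM (lowest, median and highest) at P0 and 50800, 112678 and 396500 CPM at P14. At P0 the control libraries had at most 6401 CPM and the ectopic at most 4029 CPM, while Fzd1-lacZ libraries had at least 82427 CPM. The comparison of P14 with P0 thus runs along with a shift in library composition. Fzd1 itself was at 205 to 2122 CPM in 13 ectopic libraries without DOX, 22.0 to 64.0 CPM in ectopic libraries with DOX, 3.48 to 20.3 CPM in Fzd1-lacZ libraries and 20.9 to 44.3 CPM in control libraries without DOX. Against their labels, ectopic P3 replicate 3 without DOX had 43.0 CPM, and control P7 replicate 1 with DOX had 3.45 CPM, where the other control libraries with DOX had 20.7 to 54.3 CPM. In the titles, 2 IDs stand on 5 libraries, and 1 of them covers all 3 ectopic libraries with DOX at P3. The mature sensory neuron markers (Omp, Cnga2, Adcy3 and 8 others) summed to at least 681 CPM in every library. CPM is the count scaled to library size by edgeR's trimmed mean of M-values (TMM), and TPM is the authors' value per transcript length.

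Per length, Lyz2, a lysozyme of macrophages and neutrophils, was the most abundant member, at a median of 26.2 TPM over 72 libraries (lowest 1.70, highest 127.6 TPM). The C1q chains lay close together at medians of 5.62 TPM (C1qa), 5.57 TPM (C1qb) and 5.45 TPM (C1qc). Below them came Cd74 at 4.29 TPM, H2-Aa at 3.83 TPM, Csf1r at 3.23 TPM, Cd68, a lysosomal membrane protein, at 2.57 TPM, H2-Ab1 at 2.32 TPM and H2-Eb1 at 1.65 TPM. Every member's range overlapped that of its neighbours in this order. H2-Eb1 was the sparsest, with counts of 0 to 102 and its zero in Fzd1-lacZ P10 replicate 1.

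Without DOX the class II genes were 4.92- to 5.42-fold higher at P14 than at P0, while the C1q chains stayed near their level at birth and Lyz2 fell. All ectopic and control P0 libraries share a series of title IDs (their leading digits) that no other group has. Comparisons with P0 averaged over the genotypes could therefore not be fitted with that series as a covariate. In those genotypes, P0 and its series cannot be told apart. H2-Aa, the class II alpha chain, had 16.9, 19.3 and 25.7 CPM (lowest, median and highest of 8 libraries) at P14 and 1.74, 3.32 and 5.18 CPM (of 9) at P0. The ages did not overlap. Averaged over the 3 genotypes, its log2 fold change was 2.44 ± 0.18 (SE), with an adjusted p of 8.53e-17 in edgeR's quasi-likelihood test with Benjamini-Hochberg adjustment over all genes tested.

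Cd74, the invariant chain, had 11.3, 18.8 and 71.9 CPM at P14 and 2.43, 4.80 and 6.96 CPM at P0, again without overlap (log2 fold change 2.30 ± 0.25, adjusted p = 2.63e-11 by edgeR). The beta chain H2-Ab1 had 4.35, 11.5 and 21.6 CPM at P14 and 0.707, 2.02 and 2.97 CPM at P0 (2.35 ± 0.27, adjusted p = 5.20e-11 by edgeR). The beta chain H2-Eb1 had 3.48, 9.16 and 14.8 CPM at P14 and 0.694, 1.98 and 3.02 CPM at P0 (2.34 ± 0.26, adjusted p = 2.86e-11 by edgeR). For both beta chains the lowest P14 library, Fzd1-lacZ replicate 1, still exceeded the highest P0 library. The other end was also a Fzd1-lacZ library: replicate 2 at P14 held the highest Cd74, H2-Ab1 and H2-Eb1 of the libraries without DOX, and its neutrophil and marrow markers summed to 2023 CPM, against 478 and 803 CPM in the other Fzd1-lacZ libraries at P14. The part of other cell types in these values was not tested. Ltf of the neutrophil and marrow list had 47.7, 98.7 and 279 TPM (lowest, median and highest) in the P14 libraries without DOX. There the medians of Mmp9 and Prtn3 were 6.14 and 1.47 TPM, so Ltf may carry much of that sum.

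**Figure D1:**
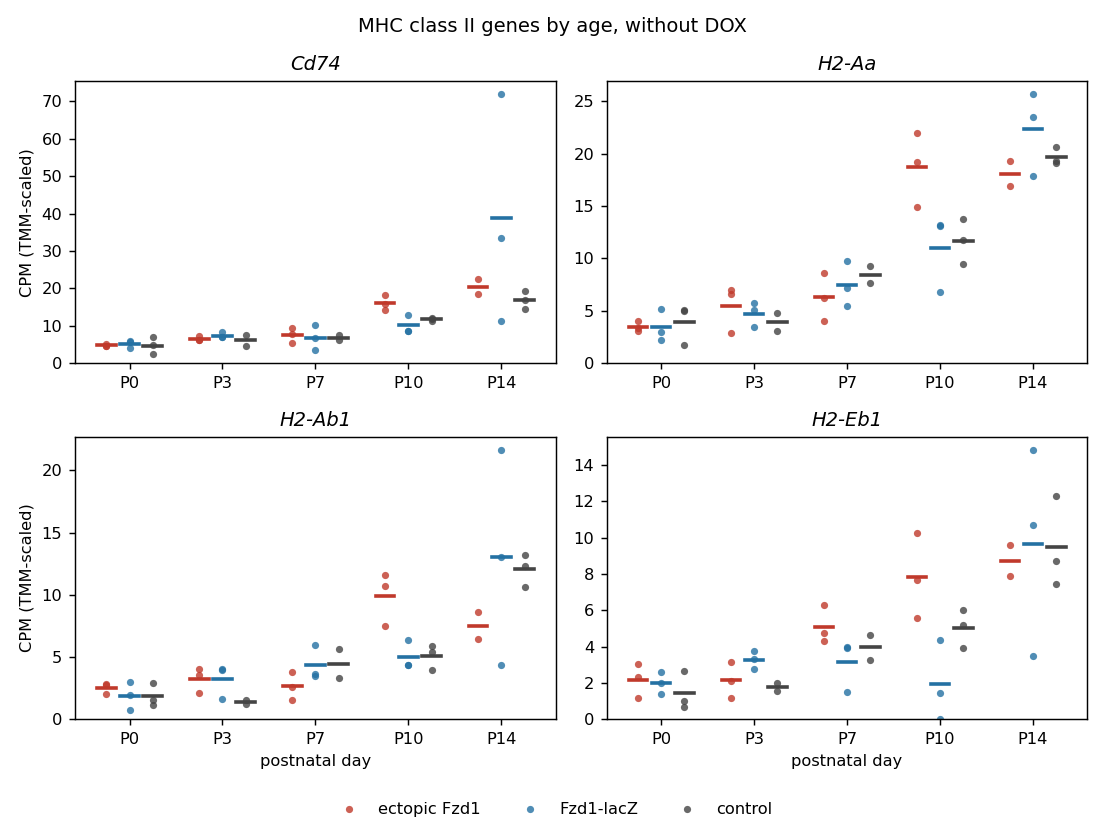
Level of Cd74, H2-Aa, H2-Ab1 and H2-Eb1 (CPM) at each postnatal day without DOX. Each point is a library and each bar a group mean, coloured by genotype (ectopic, Fzd1-lacZ, control). H2-Aa at P14 lies between 16.9 and 25.7 CPM, above all P0 libraries.

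The C1q chains moved little over the same days. C1qb had 10.3, 15.7 and 18.2 CPM at P14 and 6.92, 11.3 and 14.7 CPM at P0, with overlap, and its log2 fold change of 0.43 ± 0.16 passed the test (adjusted p = 0.0177 by edgeR), but it was -0.35 on log2(TPM + 1). Without ectopic P14 replicate 2 the call was lost (0.27, adjusted p = 0.217). C1qa (0.12 ± 0.17) and C1qc (0.28 ± 0.14, adjusted p = 0.0936 by edgeR) did not pass. Csf1r had 17.5, 23.7 and 40.1 CPM at P14 and 21.2, 30.6 and 40.1 CPM at P0 (-0.27 ± 0.14, adjusted p = 0.0888 by edgeR). It passed as lower without Fzd1-lacZ P14 replicate 2 (-0.36, adjusted p = 0.0273).

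Lyz2 fell to 50.5, 67.8 and 119 CPM at P14, against 133, 193 and 249 CPM at P0, without overlap (-1.31 ± 0.19, adjusted p = 7.51e-08 by edgeR). Neutrophil and marrow markers summed to a median of 489 CPM at P14 and 988 CPM at P0. Monocyte markers summed to 162 CPM at P14 and 334 CPM at P0. Genes within each list disagreed. Ltf had medians of 98.7 TPM at P14 and 318 TPM at P0, while Mmp9 (log2 change 1.48) and Prtn3 (1.14) rose. Fn1 of the monocyte list had 12.1 TPM at P14 and 40.5 TPM at P0. F13a1 of that list also fell, while Chil3 (2.49) and Plac8 (0.698) rose. The sums may be largely Ltf and Fn1 and do not measure these cells. The part of these cells in the Lyz2 values was not tested. Cd68 had 4.01, 7.33 and 11.3 CPM at P14 and 3.32, 4.92 and 5.10 CPM at P0, where only the lowest P14 libraries reached the P0 range (0.69 ± 0.15, adjusted p = 5.44e-05 by edgeR). In all, 6 members rose and 1 fell, where 31.6% of all genes tested rose and 27.2% fell, so a call alone sets no member apart. The median log2 change was 0.56 over the members and 0.06 over all genes.

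**Figure D2:**
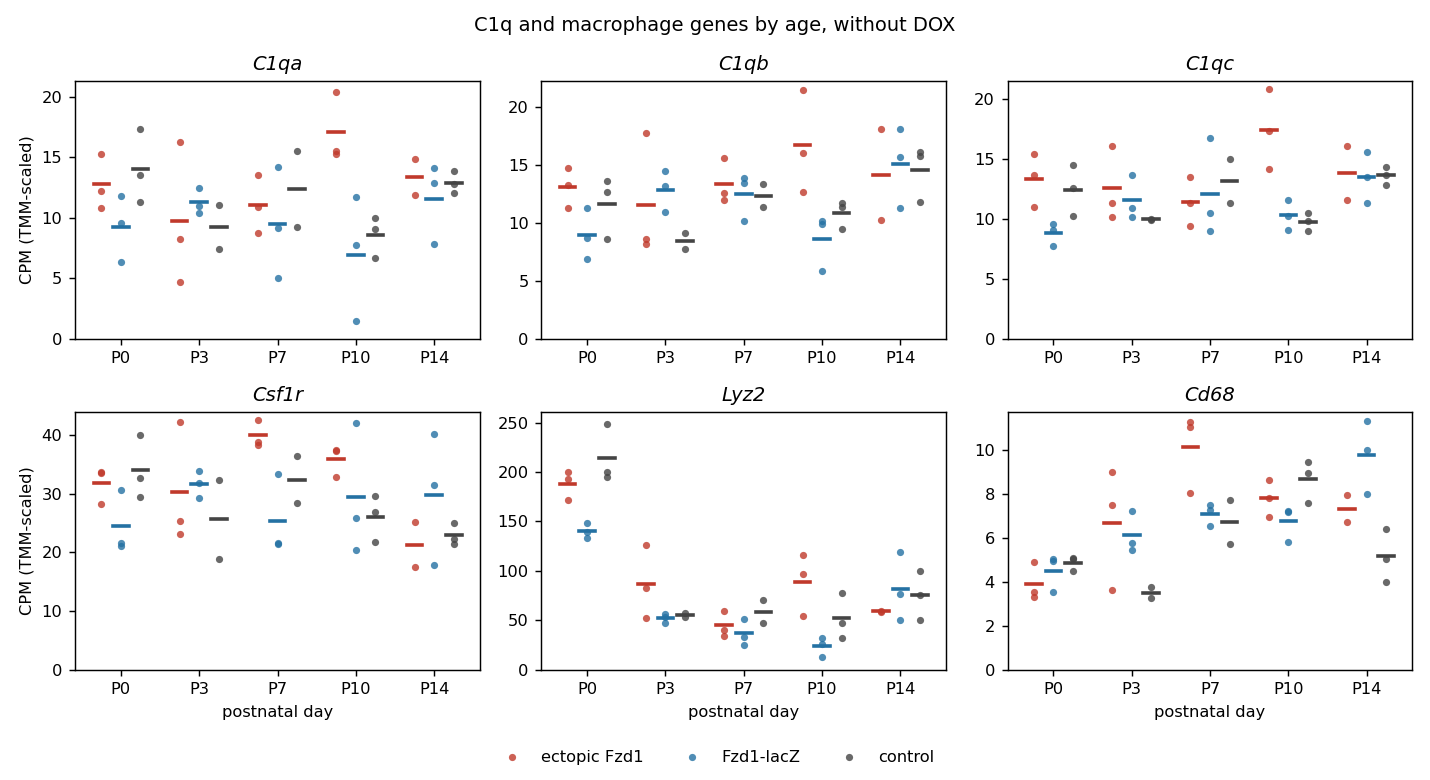
Level of C1qa, C1qb, C1qc, Csf1r, Lyz2 and Cd68 (CPM) at each postnatal day without DOX. Points are libraries and bars group means, coloured by genotype (ectopic, Fzd1-lacZ, control). Lyz2 is highest at P0, at 133 to 249 CPM, and the C1q chains show no such step.

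Direction depended on the scale for some members. The median log2 change of 8234 well-expressed genes from P0 to P14 was -0.67 in TPM and -0.02 in the edgeR fit, and its part in the reversals was not tested. On log2(TPM + 1), the class II changes were 1.22 for Cd74, 1.50 for H2-Aa, 0.997 for H2-Ab1 and 1.01 for H2-Eb1, which is 1.89, 2.17, 1.66 and 1.68 relative to that shift. C1qa, C1qb and C1qc turned to -0.52, -0.35 and -0.38 on this scale, and relative to the shift were at 0.14, 0.31 and 0.28. Of these, C1qa passed as lower (adjusted p = 0.0432 by limma). With the share of the Gm10800 family as a covariate, an alternative chosen after seeing the data, the C1q chains were called at 0.59, 0.72 and 0.65. Lyz2 was lower on either scale (-2.04, or -1.37 relative to the shift), and Cd68 was no longer called, at 0.097 (adjusted p = 0.730 by limma), or 0.76 relative to the shift. Csf1r passed as lower on this scale, at -0.85 (adjusted p = 1.14e-05 by limma), or -0.18 relative to the shift.

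Without DOX, the steps between ages place most of the fall of Lyz2 before P3 and most of the rise of class II after it. Between P3 and P0, Lyz2 was the only member called, out of 19.1% of all genes, at -1.49 ± 0.19 (adjusted p = 5.78e-08 by edgeR). Beside the values given for P0 and P14, it had 47.4, 55.0 and 126 CPM (lowest, median and highest) on P3, 25.5, 43.8 and 70.3 CPM on P7 and 13.1, 47.5 and 116 CPM on P10. Over the 5 ages in order, H2-Aa had medians of 3.32, 4.94, 7.41, 13.1 and 19.3 CPM. Its medians thus increased at each step, with ranges of neighbouring ages that overlapped. The early fall of Lyz2 was not seen in the libraries with DOX. Its medians there were 109, 121, 43.7, 52.8 and 45.9 CPM at P1, P3, P7, P10 and P14. Its median thus fell after P3 with DOX, where the steps between ages were not tested.

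Between P7 and P3, with 24.2% of genes called, H2-Aa rose by 0.68 ± 0.21 (adjusted p = 0.0168 by edgeR) and Cd68 by 0.59 ± 0.15 (adjusted p = 0.00393 by edgeR). In log2(TPM + 1) these values were -0.011 and -0.032, and 0.62 and 0.59 relative to the median shift of -0.63 between those ages. With the series of title IDs as a covariate both calls were lost (H2-Aa 0.77, adjusted p = 0.601, and Cd68 0.49, adjusted p = 0.609), and the genes called fell to 97 of all tested, against 5357 without it. With the share of the Gm10800 family as a covariate they were also lost (H2-Aa 0.75, adjusted p = 0.0519, and Cd68 0.53, adjusted p = 0.0558). The call of H2-Aa was lost without control P3 replicate 1 (0.58, adjusted p = 0.0653), control P7 replicate 2 (0.64, adjusted p = 0.0580), ectopic P3 replicate 1 (0.57, adjusted p = 0.0528) or ectopic P7 replicate 3 (0.56, adjusted p = 0.0684). H2-Eb1 was called without ectopic P3 replicate 2 (0.89, adjusted p = 0.0405) or Fzd1-lacZ P7 replicate 2 (0.83, adjusted p = 0.0492), and Lyz2 without Fzd1-lacZ P7 replicate 1 (-0.56, adjusted p = 0.0423). Between P10 and P7, with 2.33% of genes called, only H2-Aa was called among the members (0.74 ± 0.21, adjusted p = 0.0389 by edgeR). With the series of title IDs as a covariate it was lost (0.78, adjusted p = 0.530), as it was without the libraries above 25% in the Gm10800 family (0.50, adjusted p = 0.213). Leaving out any of 9 libraries ended that call, at 0.63 to 0.78 with adjusted p between 0.0535 and 0.138: control P10 replicates 2 and 3, control P7 replicates 1 and 2, ectopic P10 replicate 2, ectopic P7 replicate 2, Fzd1-lacZ P10 replicate 3 and Fzd1-lacZ P7 replicates 2 and 3. Between P14 and P10, with 0.524% of genes called, edgeR called 0 members, 5 had an unadjusted p below 0.05, and DESeq2 called 1. H2-Aa came nearest, at 0.68 ± 0.18 (adjusted p = 0.0566 by edgeR). Without Fzd1-lacZ P14 replicate 1, Cd74 (1.01, adjusted p = 0.00925), H2-Aa (0.67, adjusted p = 0.0333) and H2-Eb1 (0.98, adjusted p = 0.0215) were called. Without Fzd1-lacZ P10 replicate 2, Cd74 (1.03, adjusted p = 0.0185) and H2-Eb1 (1.60, adjusted p = 0.00605) were called.

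Within each genotype the 4 class II genes rose from birth. H2-Aa had 16.9 and 19.3 CPM at P14 and 3.13, 3.32 and 4.05 CPM at P0 in ectopic libraries, 23.5, 25.7 and 17.9 CPM at P14 and 2.97, 5.18 and 2.25 CPM at P0 in Fzd1-lacZ libraries, and 19.2, 20.6 and 19.1 CPM at P14 and 5.09, 4.95 and 1.74 CPM at P0 in control libraries. In each genotype these ages were apart. The log2 changes of Cd74, H2-Aa, H2-Ab1 and H2-Eb1 were 2.09, 2.37, 1.55 and 1.98 in ectopic mice, 2.99, 2.66, 2.84 and 2.35 in Fzd1-lacZ mice, and 1.81, 2.29, 2.66 and 2.70 in control mice. Over the 3 genotypes 15 of 30 tests were higher and 3 lower, with 32% of all genes called in ectopic, 22.5% in Fzd1-lacZ and 45.7% in control mice.

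Among the other members, Lyz2 fell in ectopic mice (-1.67) and control mice (-1.50), and in Fzd1-lacZ mice it was called only without P14 replicate 2 (-1.12, adjusted p = 0.0309 by edgeR). Cd68 rose in ectopic mice (0.88, adjusted p = 0.00985) and Fzd1-lacZ mice (1.13), and the ectopic call was lost without P14 replicate 1 (0.76, adjusted p = 0.126), as was that of H2-Ab1 (1.33, adjusted p = 0.133, against 0.0113 with it). C1qb rose in Fzd1-lacZ mice (0.80, adjusted p = 0.0239), a call lost without P0 replicate 1 (0.63, adjusted p = 0.145), P0 replicate 3 (0.79, adjusted p = 0.0637), P14 replicate 2 (0.65, adjusted p = 0.164) or P14 replicate 3 (0.80, adjusted p = 0.0660), and its value in log2(TPM + 1) was -0.033. C1qc was called in Fzd1-lacZ mice without P14 replicate 1 (0.72, adjusted p = 0.0328). Csf1r fell in control mice (-0.58, adjusted p = 0.0329), a call lost without P0 replicate 2 (-0.44, adjusted p = 0.150), P14 replicate 1 (-0.56, adjusted p = 0.0808) or P14 replicate 3 (-0.53, adjusted p = 0.0996).

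The difference between genotypes in the rise from P0 to P14 was tested itself. For ectopic minus control, edgeR called 0 members, 1 had an unadjusted p below 0.05, and 0.0858% of all genes were called. The intervals were wide: that of Cd74 ran from -1.002 to 1.56 (95%, log2) and that of H2-Aa from -0.83 to 0.98. For Fzd1-lacZ minus control, edgeR called 0 members, 2 had an unadjusted p below 0.05, and 3.55% of all genes were called. The smallest adjusted p was that of Cd68 (1.05, adjusted p = 0.0621 by edgeR). Cd68 was called without control P14 replicate 1 (1.25, adjusted p = 0.0498) or Fzd1-lacZ P14 replicate 1 (1.04, adjusted p = 0.0434), the last of which also brought in Csf1r (1.13, adjusted p = 0.0170). DESeq2 called 0 members for the ectopic and 0 for the Fzd1-lacZ difference.

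With DOX the 4 class II genes rose between P1 and P14, and the 6 other members fell. These changes were not tested against those from P0 to P14 without DOX. The ectopic libraries at P1 and P14 differ in title ID series, while the control libraries at these ages share a series. H2-Aa had 16.9, 18.5 and 32.1 CPM (lowest, median and highest of 6 libraries) at P14 and 1.76, 4.75 and 6.51 CPM at P1, without overlap (2.28 ± 0.22, adjusted p = 1.69e-13 by edgeR). Cd74 had 15.4, 18.7 and 80.6 CPM at P14 and 4.39, 4.997 and 6.10 CPM at P1 (2.38 ± 0.30, adjusted p = 1.02e-09 by edgeR). H2-Ab1 had 5.83, 10.3 and 30.6 CPM at P14 and 1.51, 2.53 and 4.27 CPM at P1 (2.26 ± 0.30, adjusted p = 4.76e-09 by edgeR), and H2-Eb1 had 8.21, 9.05 and 19.8 CPM at P14 and 0.502, 2.45 and 3.12 CPM at P1 (2.34 ± 0.30, adjusted p = 1.81e-09 by edgeR). None of these ranges overlapped. The highest library of all 4 at P14 was ectopic replicate 2.

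C1qa fell to 7.35, 9.34 and 12.97 CPM at P14, against 13.3, 21.5 and 26.0 CPM at P1 (-1.08 ± 0.20, adjusted p = 5.10e-06 by edgeR). C1qb fell to 7.35, 11.8 and 14.2 CPM, against 12.8, 23.1 and 26.9 CPM (-0.89 ± 0.18, adjusted p = 3.42e-05 by edgeR), and C1qc to 6.92, 10.9 and 15.3 CPM, against 14.3, 24.2 and 29.5 CPM (-1.03 ± 0.16, adjusted p = 3.36e-07 by edgeR). The ranges of C1qb and C1qc overlapped slightly and those of C1qa did not. Csf1r fell to 19.5, 24.2 and 34.6 CPM at P14, against 33.1, 52.1 and 59.0 CPM at P1 (-1.03 ± 0.16, adjusted p = 1.38e-07 by edgeR), with a slight overlap. Lyz2 (-0.87 ± 0.23, adjusted p = 0.00101) and Cd68 (-0.55 ± 0.17, adjusted p = 0.00416) fell as well, both with overlapping ranges. So 4 members rose and 6 fell, where 21.8% of all genes rose and 26.6% fell. The members' median was -0.71 and that of all genes 0.03. In log2(TPM + 1) all 10 kept these directions relative to the median shift of -0.89, with class II at 1.75 to 1.99 and the C1q chains at -0.93 to -0.80.

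**Figure D3:**
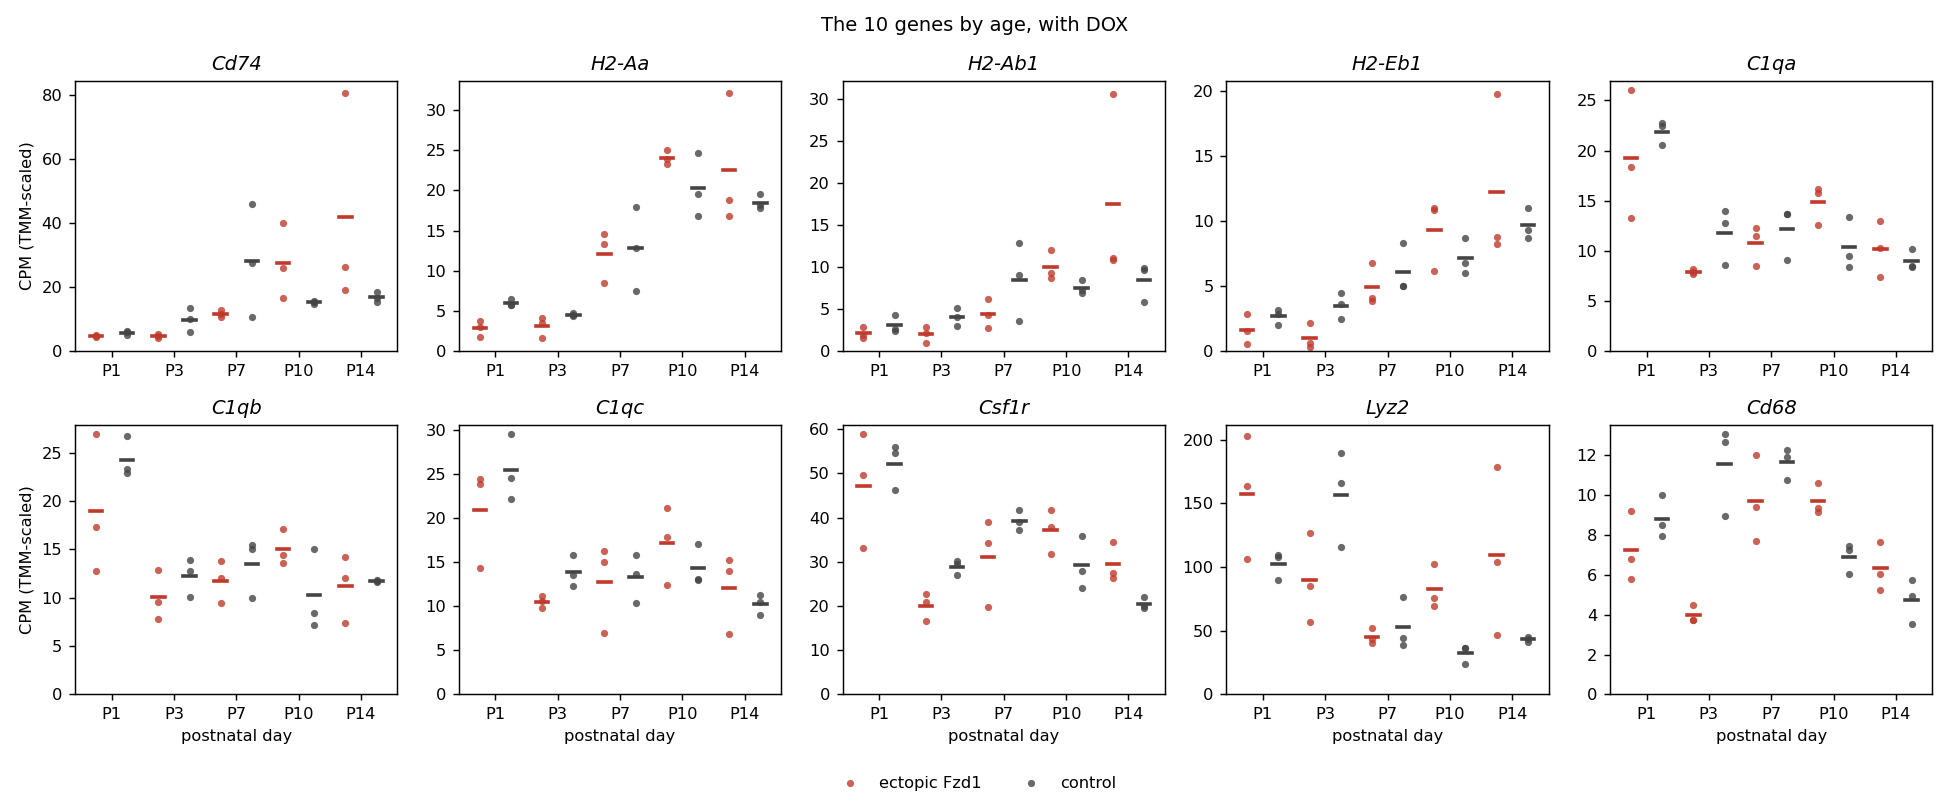
Level of the 10 genes (CPM) at each postnatal day with DOX. Points are libraries and bars group means, coloured by genotype (ectopic, control). The C1q chains and Csf1r are highest at P1, where Csf1r lies between 33.1 and 59.0 CPM.

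The P1 libraries with DOX stood apart in more than these genes. The C1q chains summed to 43.5, 46.7 and 56.0 TPM at P1 and to 16.4, 24.2 and 26.8 TPM at P3, while P0 libraries without DOX had 12.3, 20.4 and 28.7 TPM. The 7 monocyte markers summed to 702, 777 and 962 CPM at P1 and 143, 198 and 278 CPM at P3 with DOX, and to 246, 334 and 450 CPM at P0 without DOX. No P1 library without DOX and no P0 library with DOX was analysed here, so age and DOX cannot be told apart for P1. Fn1 may carry much of the monocyte sums, and the part of monocytes in the C1q and Csf1r values was not tested.

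Both genotypes with DOX showed the class II rise. The log2 changes of Cd74, H2-Aa, H2-Ab1 and H2-Eb1 were 3.20, 2.95, 3.06 and 2.84 in ectopic mice (34.4% of all genes called) and 1.55, 1.62, 1.46 and 1.83 in control mice (37.8% called). The difference between these rises was not tested. At P1, H2-Aa had 1.76, 3.01 and 3.78 CPM in ectopic libraries and 5.73, 6.51 and 5.72 CPM in control libraries, and at P14 it had 18.8, 32.1 and 16.9 CPM in ectopic libraries and 18.2, 17.8 and 19.5 CPM in control libraries. The genotypes were apart at P1 and overlapped at P14.

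C1qa, C1qb, C1qc, Csf1r, Lyz2 and Cd68 all fell in control mice with DOX (-1.29, -1.04, -1.31, -1.35, -1.24 and -0.91). In ectopic mice C1qa (-0.88, adjusted p = 0.00942), C1qb (-0.73, adjusted p = 0.0216), C1qc (-0.75, adjusted p = 0.00794) and Csf1r (-0.71, adjusted p = 0.00832) fell by edgeR, and each of these calls was lost without at least 1 library. Without ectopic P1 replicate 3 those of C1qa (-0.61, adjusted p = 0.111), C1qb (-0.39, adjusted p = 0.278) and Csf1r (-0.53, adjusted p = 0.0801) were lost. Without P1 replicate 2 that of C1qc was lost (-0.62, adjusted p = 0.0578). Without P14 replicate 3 those of C1qa (-0.74, adjusted p = 0.0533), C1qb (-0.55, adjusted p = 0.123) and C1qc (-0.53, adjusted p = 0.0829) were lost. C1qb was also lost without P14 replicate 1 (-0.75, adjusted p = 0.0514) and Csf1r without P14 replicate 2 (-0.64, adjusted p = 0.0547), while Lyz2 (-0.50, adjusted p = 0.221) was called without that library (-1.04, adjusted p = 0.0183).

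Setting class II against C1q within each library removes the scaling between libraries. The summed TPM of the 4 class II genes over that of the C1q chains was 0.166, 0.379 and 0.550 (lowest, median and highest) on P0 without DOX, then 0.423, 0.518 and 0.810 on P3, 0.457, 0.597 and 0.828 on P7, 0.918, 1.16 and 1.29 on P10 and 1.12, 1.53 and 2.78 on P14. With DOX it was 0.178, 0.226 and 0.258 on P1, then 0.335, 0.418 and 0.662 on P3, 0.876, 1.01 and 1.84 on P7, 1.17, 1.66 and 1.93 on P10 and 1.67, 1.78 and 3.78 on P14. The medians increased at every step in both series, and P14 lay wholly above P7 without DOX and above P3 with DOX. A ratio shows unequal change and does not say which side moved. Over the same 5 ages without DOX, the median of Lyz2 over C1q was 4.54, 1.52, 0.992, 1.05 and 1.55.

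**Figure D4:**
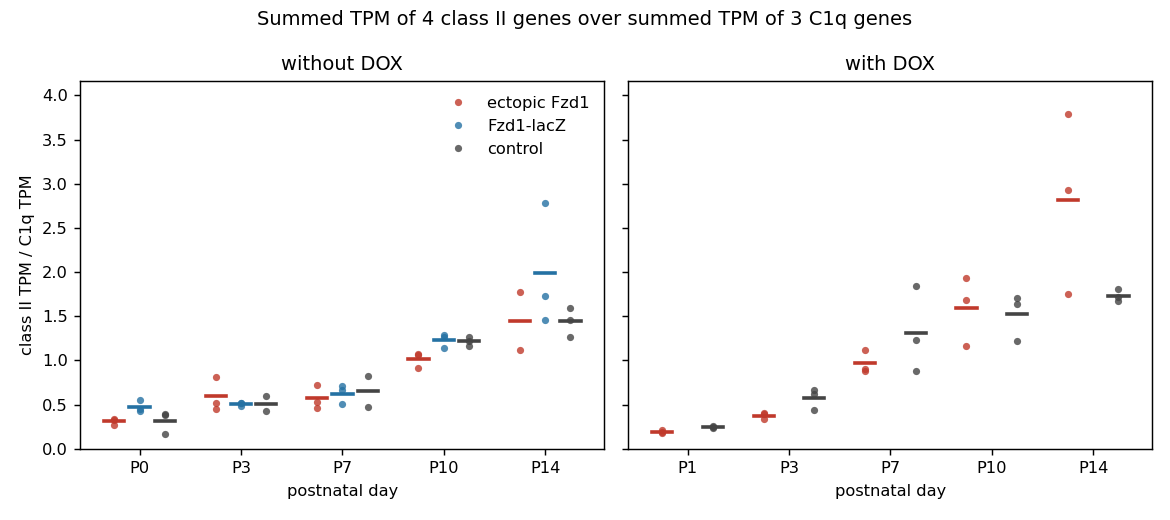
Summed TPM of the 4 class II genes divided by the summed TPM of the 3 C1q chains, per library, by postnatal day, without DOX on the left and with DOX on the right. The ratio is at most 0.550 at P0 and at least 1.12 at P14 without DOX.

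Averaged over the 5 ages without DOX, ectopic Fzd1 left no member past the threshold. EdgeR and DESeq2 each called 0 of 10 while edgeR called 9.19% of all genes, and 3 members had an unadjusted p below 0.05. The smallest adjusted p was that of Cd68 (0.30 ± 0.12, adjusted p = 0.105 by edgeR), which was called without ectopic P3 replicate 1 (0.36, adjusted p = 0.0202). The 95% interval of the log2 difference was -0.23 to 0.39 for H2-Aa, -0.24 to 0.63 for Cd74 and 0.03 to 0.54 for C1qb. The mature neuron markers of these libraries moved with genotype, with 10 of 11 lower in ectopic mice and a median of -0.81. Ectopic and control libraries without DOX differ in title ID series at P14 and in part at P7.

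Fzd1-lacZ against control gave 0 called members by edgeR and by DESeq2, where edgeR called 2.85% of all genes, and 2 members had an unadjusted p below 0.05. The smallest adjusted p was that of Lyz2 (-0.42 ± 0.16, adjusted p = 0.150 by edgeR). The intervals were -0.36 to 0.27 for H2-Aa, -0.07 to 0.80 for Cd74 and -0.24 to 0.29 for C1qb. Fzd1-lacZ and control libraries share a title ID series only at P14, so at P0, P3, P7 and P10 genotype goes along with series. With DOX, ectopic against control gave 0 called members by edgeR and 0 by DESeq2, with 0.826% of genes called by edgeR and 2 members at an unadjusted p below 0.05. Lyz2 was nearest (0.47 ± 0.14, adjusted p = 0.120 by edgeR) and was called without ectopic P14 replicate 3 (0.54, adjusted p = 0.0358). Ectopic and control libraries with DOX share a series only at P1, so at P3, P7, P10 and P14 genotype goes along with series here too.

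At single ages a few members passed. Without DOX 2 of 50 tests of ectopic against control did, both at P10, where 10.3% of genes were called, while 0.754%, 0.569%, 0.704% and 1.76% were called at P0, P3, P7 and P14. C1qa had 15.6, 20.4 and 15.3 CPM in ectopic and 6.65, 9.995 and 9.07 CPM in control libraries (1.02 ± 0.31, adjusted p = 0.0240 by edgeR). C1qc had 17.3, 20.9 and 14.2 CPM in ectopic and 10.5, 8.96 and 9.86 CPM in control libraries (0.86 ± 0.26, adjusted p = 0.0224 by edgeR). For both genes the groups were apart. The C1qa call was lost without control replicate 1 (0.86, adjusted p = 0.113), control replicate 3 (1.06, adjusted p = 0.0654) or ectopic replicate 2 (0.86, adjusted p = 0.178), and the C1qc call without control replicate 2 (0.80, adjusted p = 0.0931), control replicate 3 (0.87, adjusted p = 0.0697) or ectopic replicate 2 (0.71, adjusted p = 0.183). With the share of the Gm10800 family as a covariate both calls were lost (0.76, adjusted p = 0.126, for C1qa and 0.66, adjusted p = 0.115, for C1qc). Cd68 was called at P3 without ectopic replicate 1 (1.20, adjusted p = 0.0108). The macrophage list of 35 genes summed to 3989, 4622 and 3984 CPM in ectopic and 2769, 2339 and 2028 CPM in control libraries at P10, and its part in these values was not tested. Cbr2 of that list had medians of 958 TPM at P0 and 1338 TPM at P14 without DOX, against 3.25 and 0.795 TPM for Mertk. Averaged over the ages, Cbr2 was higher in ectopic mice (0.49 ± 0.12, adjusted p = 0.00370 by edgeR), as was Mpeg1 (0.35), while Gpnmb was lower (-0.78). The sum may thus be largely Cbr2 and does not measure macrophages.

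For Fzd1-lacZ against control 1 of 50 passed by edgeR, and 0 in DESeq2, 0 with 1 library per title ID, and 9 and 10 in TPM with pseudocounts of 1 and 0.1. The 1 was Cd68 at P14 (0.714% of genes called, with 7.73%, 1.08%, 0.0858% and 0.285% at the ages before it), with 10.01, 11.3 and 8.01 CPM in Fzd1-lacZ and 6.41, 5.07 and 4.01 CPM in control libraries (0.92 ± 0.24, adjusted p = 0.0411 by edgeR). The groups were apart, but the call was lost without control replicate 2 (0.91, adjusted p = 0.147) or 3 (0.75, adjusted p = 0.349) or Fzd1-lacZ replicate 1 (0.91, adjusted p = 0.0664) or 2 (0.77, adjusted p = 0.280). It was also lost in DESeq2 (0.91, adjusted p = 0.0781) and with 1 library per title ID (0.93, adjusted p = 0.0539). Without Fzd1-lacZ replicate 1 Cd74 was called at P14 (1.65, adjusted p = 0.00617).

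With DOX 2 of 50 tests of ectopic against control passed, both lower, while 0.569%, 0.0858% and 0.199% of genes were called at P7, P10 and P14. At P1, with 14.8% of genes called, H2-Aa (values above) was at -1.002 ± 0.35 (adjusted p = 0.0450 by edgeR), and the call was lost without any of control replicates 1, 2 and 3 or ectopic replicates 1 and 2 (-1.04 to -0.82, adjusted p 0.0703 to 0.200). At P3, with 0.181% called, Cd68 had 3.72, 4.48 and 3.72 CPM in ectopic and 13.1, 12.7 and 8.94 CPM in control libraries (-1.54 ± 0.24, adjusted p = 0.000111 by edgeR). These groups differ in title ID series, so genotype and series go together at P3. The 3 ectopic libraries there carry 1 ID, and with 1 library per ID the value was -1.62 (adjusted p = 0.167). Without control P7 replicate 3, Cd74 was called at P7 (-1.66, adjusted p = 0.00919), and without ectopic P14 replicate 3, Cd74 (1.68, adjusted p = 0.0241) and Lyz2 (1.71, adjusted p = 0.00598) were called at P14.

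DOX itself was compared in control mice, over P3 to P14, with 0.867% of all genes called. Control libraries with and without DOX share a title ID series only at P14, so at P3, P7 and P10 DOX goes along with series. Cd68 was the only member to pass (0.51 ± 0.13, adjusted p = 0.0366 by edgeR). The call was lost without any of 14 libraries, at 0.46 to 0.57 with adjusted p between 0.0545 and 0.116: with DOX, P3 replicates 1 and 2, P7 replicate 1, P10 replicates 2 and 3 and P14 replicates 2 and 3, and without DOX, P3 replicates 1 and 2, P7 replicates 1 and 2, P10 replicate 1 and P14 replicates 2 and 3. Cd74 (0.77 ± 0.23, adjusted p = 0.0873 by edgeR) was called without P7 replicate 3 with DOX (0.87, adjusted p = 0.0313).

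By age, 3 of 40 tests passed, all higher with DOX. At P3 (7.85% of genes called) Cd68 had 13.1, 12.7 and 8.94 CPM with DOX and 3.26 and 3.76 CPM without (1.71 ± 0.26, adjusted p = 2.59e-05 by edgeR). At the same age Lyz2 had 115, 166 and 189 CPM with DOX and 53.4 and 57.3 CPM without (1.51 ± 0.37, adjusted p = 0.00601 by edgeR), a call lost without either P3 library without DOX (replicate 1, 1.46, adjusted p = 0.10001, and replicate 2, 1.56, adjusted p = 0.0660). For both genes the groups were apart. With the series of IDs in the titles as a covariate neither passed (Cd68 1.45, adjusted p = 0.413, and Lyz2 2.06, adjusted p = 0.407). At P7 (3.81% called) Cd74 had 27.6, 46.1 and 10.7 CPM with DOX and 6.27 and 7.46 CPM without (2.01 ± 0.49, adjusted p = 0.0206 by edgeR). That call was lost without P7 replicate 2 with DOX (1.48, adjusted p = 0.0690) or without replicate 1 (1.89, adjusted p = 0.134) or 2 (2.14, adjusted p = 0.162) of the libraries without DOX, and with the share of the Gm10800 family as a covariate (1.31, adjusted p = 0.423). Neutrophil and marrow markers at P7 summed to 1241, 2022 and 552 CPM with DOX and 827 and 781 CPM without, in the same order as Cd74 among the libraries with DOX, and their part was not tested. Ltf may carry much of these sums too. All control P7 libraries with DOX share a title ID series that no other group has, so DOX and series cannot be told apart at P7. The library with 27.6 CPM of Cd74, P7 replicate 1 with DOX, goes against its label by its Fzd1. At P10 (0.0497% of genes called) and P14 (0.0542%) edgeR and DESeq2 each called 0 members, and 2 at P10 and 1 at P14 had an unadjusted p below 0.05.

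The change in the ectopic effect with DOX, the effect without DOX minus that with DOX over P3 to P14, was tested directly, with 2.39% of all genes called. Cd68 was the only member called (0.67 ± 0.18, adjusted p = 0.0227 by edgeR). At P3 its levels in ectopic libraries were 3.72, 4.48 and 3.72 CPM with DOX and 3.65, 7.49 and 8.99 CPM without DOX, while in control libraries they were 13.1, 12.7 and 8.94 CPM with DOX and 3.26 and 3.76 CPM without DOX. The call was lost without control P3 replicate 1 (0.64, adjusted p = 0.0550), control P7 replicate 1 (0.61, adjusted p = 0.0690), ectopic P14 replicate 1 (0.63, adjusted p = 0.0548) or ectopic P3 replicate 2 (0.62, adjusted p = 0.0579), all without DOX. Without the libraries that go against their labels it was 0.62 (adjusted p = 0.0365). The rise from P3 to P14 with DOX against that without DOX gave 0 called members by edgeR and 0 by DESeq2, 2 at an unadjusted p below 0.05, with 7.75% of all genes called.

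**Figure D5:**
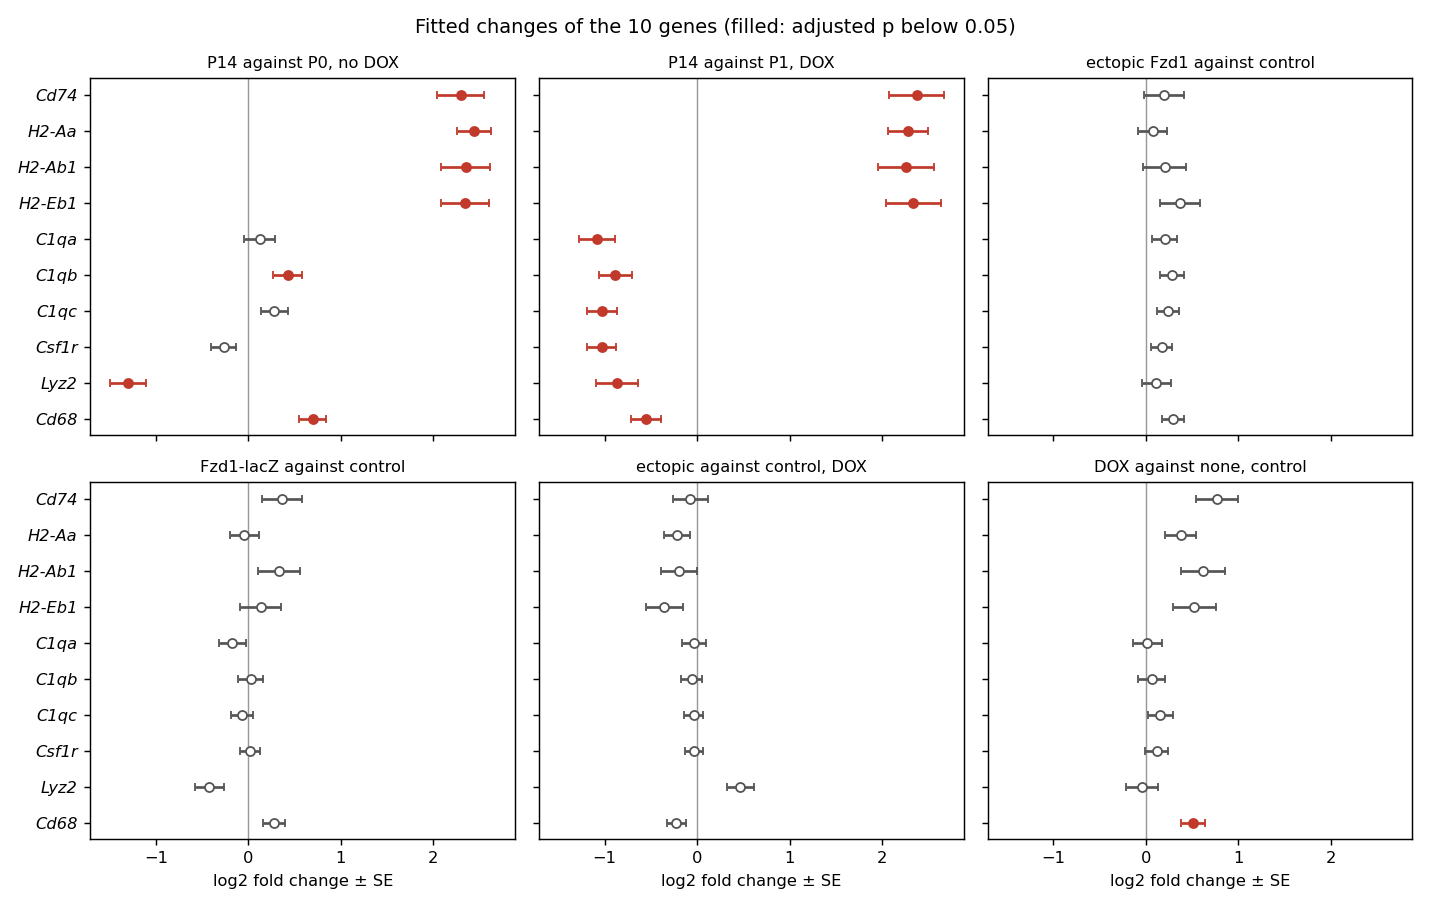
Log2 fold change (edgeR) of each of the 10 genes in 6 comparisons, with bars of 1 SE and filled red points where the adjusted p is below 0.05. The class II genes lie between 2.26 and 2.44 in both comparisons of P14 with the first age, and no member is filled in the genotype panels.

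Of a list of 17 other class II pathway genes, 9 of 15 tested rose and 3 fell between P14 and P0, where 31.6% of all genes rose and 27.2% fell. The list's median was 0.54, against 0.06 for all genes. H2-DMb1, a chain of the DM molecule that helps load peptide, rose (1.46 ± 0.18, adjusted p = 8.94e-10 by edgeR), with a median of 2.06 TPM at P14 and 1.38 TPM at P0. H2-DMb2 rose by 1.29 ± 0.19, with 4.46 TPM at P14 and 3.42 TPM at P0. Ciita, the class II coactivator, was at 1.50, and at 0.81 (adjusted p = 0.103 by edgeR) with the share of the Gm10800 family as a covariate. Of the list of other complement genes, 6 of 22 tested rose and 4 fell (median 0.24), shares no higher than the 31.6% and 27.2% of all genes. C3, the central complement protein, rose by 0.97 ± 0.27, with a median of 1.59 TPM at P14 and 0.91 TPM at P0.

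Of the list of other macrophage genes, 9 of 33 tested rose and 9 fell between P14 and P0 (median 0.01), close to the 31.6% and 27.2% of all genes, so the counts do not set the list apart. Mertk, a receptor for the uptake of dying cells, fell (-1.46 ± 0.12), with a median of 0.795 TPM at P14 and 3.25 TPM at P0. Lyve1, which marks a subset of vessel-associated macrophages and lymphatic vessels, fell (-1.50 ± 0.36), with 0.105 TPM at P14 and 0.67 TPM at P0. Beside the same 31.6% of all genes, 6 of 10 tested genes of the T and NK cell list rose (median 1.29), 6 of 12 of the dendritic cell list (median 0.94) and 2 of 9 of the B cell list (median 0.71). The summed B cell markers were 11.5, 20.6 and 26.0 CPM at P14 and 11.4, 13.6 and 22.8 CPM at P0. The T and NK cell markers hardly moved in sum, at 18.2, 22.7 and 36.1 CPM at P14 and 17.6, 22.1 and 33.0 CPM at P0. Dendritic cell markers were lower in sum, at 282, 337 and 446 CPM at P14 and 444, 634 and 793 CPM at P0. Cd24a of that list fell (-1.29 ± 0.16), with medians of 44.8 TPM at P14 and 208 TPM at P0, and may carry much of that sum. The part of these cells in the class II values was not tested. With DOX between P14 and P1, where 21.8% of all genes rose and 26.6% fell, 4 of 15 tested genes of the class II pathway list rose and 4 fell, and 2 of 33 of the macrophage list rose and 12 fell (median -0.28).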

How the data were processed

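TRIzol extraction and a stranded total RNA kit with removal of ribosomal RNA were used, per the labels' protocols. Per the submitters' processing notes, bcl2fastq 2.18, STAR 2.6.1c and RSEM were used with build mm10. The annotation release is not given in the sources used here. The authors deposited a table of whole-number read counts per gene and a table of TPM values. From the count table, 4 rows outside genes were left out, and genes held 8.95% to 47.2% of the reads (median 28.1%). All 72 libraries were fitted in edgeR 4.0.16 (R 4.3.3) with TMM scaling, the quasi-likelihood test, 1 term per group and 47 residual degrees of freedom. The log2 CPM values used a prior count of 2. An adjusted p below 0.05 over 22144 genes counted as called. Age contrasts averaged the genotypes, and genotype contrasts averaged the ages. Alternatives tried were the DESeq2 1.42.0 test, edgeR with size factors from DESeq2, other filters, fewer groups in the fit, limma 3.58.1 on log2(TPM + 1) and log2(TPM + 0.1), libraries left out, and covariates. The main test was checked on simulated data. The members and all gene lists were chosen with earlier results of these data known. Named genes outside the members were, from each list, up to 4 called genes with the largest change between P14 and P0, plus the called class II, complement and macrophage genes of the genotype and DOX comparisons by smallest p. C3, Mertk, Lyve1 and the DM chains were picked among these for description. Within groups, 69 pairs of libraries were compared, and the smallest chi-square per gene was 2.08, so no pair was taken as 1 library. The labels give no replicate numbers, and libraries are numbered in accession order.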

Additional observations from a re-analysis of the deposited data

Results flagged for a closer look

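Cd68, the lysosomal macrophage gene, differed between ectopic and control mice in how it moved with DOX. The ectopic effect without DOX minus that with DOX, over P3 to P14, was 0.67 ± 0.18 on the log2 scale (adjusted p = 0.0227 by edgeR's quasi-likelihood test), by a test of the difference itself. At P3 the levels in ectopic libraries were 3.72, 4.48 and 3.72 CPM with DOX and 3.65, 7.49 and 8.99 CPM without DOX. The last of these, the library labelled ectopic P3 replicate 3, had 43.0 CPM of Fzd1, which goes against its label, and without the libraries against their labels the value was 0.62 (adjusted p = 0.0365). In control libraries they were 13.1, 12.7 and 8.94 CPM with DOX and 3.26 and 3.76 CPM without DOX. At P3 the ectopic and control libraries share a title ID series without DOX and differ in series with DOX. The value was 0.66 in DESeq2 (adjusted p = 0.0612), 0.68 with 1 library per title ID (adjusted p = 0.0646) and 0.46 in log2(TPM + 1) (adjusted p = 0.363), so the direction held in these and the call did not. It was also lost without control P3 replicate 1 (0.64, adjusted p = 0.0550), control P7 replicate 1 (0.61, adjusted p = 0.0690), ectopic P14 replicate 1 (0.63, adjusted p = 0.0548) or ectopic P3 replicate 2 (0.62, adjusted p = 0.0579), all without DOX.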

How the results depend on the processing

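Of 1647 values recomputed for 364 results, 1458 were labelled the same, 88 lost and 24 gained a call, 65 moved and 12 reversed. For fold changes, the same meant direction and side of the threshold. For counts and medians over the members it meant a value close to the main one. For the TPM level of each member in each group it meant a median within the SD of the mean. Groups of 2 or 3 libraries meet that rule almost whatever their values, so the total overstates the stability. Among fold changes alone, DESeq2 kept 75, lost 3 and gained 1, and limma on log2(TPM + 1) kept 51, lost 20, gained 3 and reversed 6. The 12 reversals came from TPM (pseudocounts 1 and 0.1): between P14 and P0, C1qa (-0.52 and -0.60), C1qb (-0.35 and -0.41) and C1qc (-0.38 and -0.45), between P7 and P3, H2-Aa (-0.011 and -0.038) and Cd68 (-0.032 and -0.039), and C1qb in Fzd1-lacZ mice (-0.033 and -0.037). The cause was not tested. The median shift of well-expressed genes in TPM was -0.30 between P10 and P7, 0.32 between P14 and P10, -0.16 for ectopic, -0.36 for Fzd1-lacZ and 0.13 for DOX in control mice. Counts of called members moved as follows. Between P7 and P3 (2 called) there were 4 with no filter, 0 with the title series as covariate, 1 with the family share as covariate and 1 with either TPM pseudocount. Between P10 and P7 (1 called) there were 3 with no filter, 2 in DESeq2, and 0 with the title series, without libraries above 25% in the Gm10800 family, with 1 library per ID or in TPM. Between P14 and P10 (0 called) there were 5 with no filter, 3 with the share covariate and 1 in DESeq2. For Fzd1-lacZ (0 called) there was 1 with no filter and 1 in TPM. For ectopic with DOX (0 called) there was 1 with no filter, 1 without the libraries above 25% and 1 with the share covariate. For DOX in control mice (1 called) there were 2 without the libraries above 25%, 3 in a fit of only the groups compared, and 0 without the libraries against their labels, with 1 library per ID, with the family left out or with TPM + 0.1. For the DOX difference (1 called) there were 0 with no filter, 1 library per ID, TPM or DESeq2. The Fzd1-lacZ difference in age rise (0 called) gave 2 with no filter, 4 without the libraries above 25% and 2 with the family left out. The DOX difference in age rise (0 called) gave 1 with the share covariate. At single ages, ectopic (2 called) gave 5 with no filter and 0 with the share covariate or in TPM. Fzd1-lacZ (1 called) gave 3 with no filter, 2 without the libraries above 25%, 2 with the family left out, 9 and 10 in TPM, and 0 with 1 library per ID or in DESeq2. Ectopic with DOX (2 called) gave 11 with no filter, 6 without the libraries above 25%, 4 in DESeq2, 1 with the family left out, 1 in TPM and 0 with 1 library per ID. DOX in control mice (3 called) gave 1 with TPM + 0.1. By genotype between P14 and P0 (18 called) there were 11 in TPM. Leaving out each library in turn gave 6 to 8 called members between P14 and P0, 10 to 10 between P14 and P1 with DOX, 1 to 1 between P3 and P0, 1 to 3 between P7 and P3, 0 to 1 between P10 and P7 and 0 to 3 between P14 and P10. It gave 0 to 1 for ectopic, 0 to 0 for Fzd1-lacZ, 0 to 1 for ectopic with DOX, 0 to 2 for DOX in control mice, 0 to 1 for the DOX difference, and 0 to 0, 0 to 2 and 0 to 0 for the ectopic, Fzd1-lacZ and DOX differences in age rise. At single ages it gave 0 to 3 for ectopic, 0 to 1 for Fzd1-lacZ, 1 to 4 for ectopic with DOX and 2 to 3 for DOX in control mice, and by genotype 16 to 19 between P14 and P0 and 15 to 18 between P14 and P1. Over all genes, 5357 were called between P7 and P3 (97 to 11625 over the alternatives), 517 between P10 and P7 (3 to 2059), 4231 between P3 and P0 (358 to 5829), 116 between P14 and P10 (12 to 272), 13030 between P14 and P0 (11062 to 14537) and 10726 between P14 and P1 (9409 to 15515). They were 2035 for ectopic (1228 to 2946), 630 for Fzd1-lacZ (469 to 3316), 183 for ectopic with DOX (31 to 436), 192 for DOX in control mice (24 to 1377), 530 for the DOX difference (119 to 844), and 19 (4 to 83), 786 (12 to 5740) and 1716 (9 to 3505) for the ectopic, Fzd1-lacZ and DOX differences in age rise. No paired analysis was possible because the labels give no replicate numbers. Groups of 2 or 3 libraries and members with few counts, such as H2-Eb1, leave wide intervals.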

Other observations

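Genes whose levels followed the members most closely were found by the root mean square difference of centred log2 CPM over the 25 group means, among 16723 genes. Nearest to the mean of the 4 class II genes were Scd1, a fatty acid desaturase (0.386), Fmo5, a flavin monooxygenase (0.408), and Prss33, a serine protease (0.415), where the median gene stood at 0.952. Nearest to the mean of the C1q chains were Armc5 (0.204), Gsn, the actin-severing protein gelsolin (0.205), and Serpinf1 (0.205), with a median gene at 0.433. Among themselves the C1q chains differed by 0.165 to 0.209 and the class II genes by 0.327 to 0.474, while a class II gene and a C1q chain differed by 0.879 to 1.07. That separation lies in the group means. For deviations of libraries within groups the values were 0.232 to 0.376 among C1q chains and 0.380 to 0.557 among class II genes. Between a class II gene and a C1q chain they were 0.301 to 0.503, which overlaps both.

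Of the interferon response list, 7 of 18 tested were higher and 0 lower between P14 and P0 without DOX by edgeR, where 31.6% of all genes were higher and 27.2% lower, so the count of higher genes is near that of all genes (median 0.35, all genes 0.06). Ifit1, an antiviral RNA-binding protein, rose by 1.63 ± 0.21 and Ifit2 by 0.96 ± 0.11 on the log2 scale. Cd55, which limits complement activation on cell surfaces, was lower without DOX in ectopic than in control mice (-0.32 ± 0.07), where 9.19% of all genes were called. It was also lower in Fzd1-lacZ than in control mice (-0.25 ± 0.07, adjusted p = 0.0341 by edgeR), where 2.85% were called. A lower value was thus not seen in ectopic mice alone, but both comparisons use the same control libraries and are not independent. The ectopic effect on Cd55 without DOX minus that with DOX was -0.46 ± 0.11 (adjusted p = 0.0105 by edgeR), where 2.39% of all genes were called. H2-DMb2 was lower in ectopic mice as well (-0.67 ± 0.15).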
